A study of Mus musculus with 36 samples.

Results

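The granule genes described here are 7 genes, chosen by exact symbol: 5 granzymes (Gzma, Gzmb, Gzmc, Gzmk, Gzmm), perforin (Prf1) and serglycin (Srgn). All 7 were found in each of the 4 deposited tables of mouse natural killer (NK) cell RNA, among 32940 genes in the table of sorted subsets and 56923 in each of the other tables. Together the tables hold 36 libraries in 12 groups of 3 replicates, with values in TPM, an abundance that is corrected for transcript length and given relative to a library total. Summed over all genes listed, a library of the subset table held 934292 to 948786 TPM, while those of the other tables all held the same sum. Levels of different genes can be set side by side within a library, and groups were compared within a table only.

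NK cells kill target cells by releasing lytic granules onto them. Perforin forms pores in the target's membrane, granzymes enter through this route as serine proteases, and serglycin is the proteoglycan core on which both are stored in the granule. Granzyme A is a tryptase that can drive inflammatory forms of cell death, and granzyme B cleaves after aspartate and activates caspases. Granzyme K is a tryptase related to granzyme A, granzyme M cleaves after methionine or leucine, and granzyme C belongs to the rodent cluster of granzymes beside granzyme B. Mouse NK cells at rest are known to hold much mRNA for granzyme B and perforin with little of the proteins, which accumulate upon activation, so mRNA levels are not protein levels.

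The sorted-subset table holds 18 libraries of CD27-negative, CD11b-positive splenic NK cells from wild-type C57BL/6 mice (WT, B2m+/+) and from B2m knockout mice (KO, B2m-/-), which lack the light chain of MHC class I. The sort used inhibitory receptors: TP cells were positive for Ly49C, Ly49I and NKG2A, SP cells for Ly49I only, and TN cells for none of them. The ionomycin table holds 6 libraries of NK cells purified by FACS from WT splenocytes after 22 h with vehicle or with ionomycin, an ionophore that raises cytosolic calcium. The antibody table holds 9 libraries of NK cells from WT splenocytes after 48 h in medium or on plates coated with antibodies to activating receptors, either NKp46 with NKG2D or NKp46 with DNAM-1. The tumour table holds 3 libraries of CD27-negative, CD11b-positive NK cells from B6 mice 10 days after subcutaneous injection of B2m-/- MC38 colon carcinoma cells, with no comparison group. The labels call the replicates biological. They give no age or sex, name neither the dose of ionomycin nor the amount of antibody, and attach the WT genotype to every group outside the KO subsets.

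Of the 6 NK markers examined (Ncr1, Klrb1c, Nkg7, Eomes, Klrk1, Tbx21), all were detected in every group. Sequencing depth cannot be read from TPM, and the number of genes above 0 per library was 12290 to 14501 for sorted subsets, 13904 to 15483 for ionomycin and vehicle, 13555 to 18096 for the antibody experiment and 14155 to 16271 for tumours. Differences between groups are given in log2(TPM + 1) with a standard error (SE), and a gene was called at a Benjamini-Hochberg adjusted p under 0.05 over all genes tested in limma. The smallest p of an exact permutation test between groups of 3 libraries is 0.1, so all calls come from the limma model. In bulk RNA, fewer cells expressing a gene and less RNA per cell cannot be told apart.

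The sequences just upstream of 4 of the genes are shown first, because Gzma, Gzmb and Prf1 had lower values together in TN cells and Gzmc ranged from 0 to 647 TPM over all libraries. Each run is the 250 bases before the gene's start in RefSeq for assembly GRCm38.p6, written 5′ to 3′ in the direction of transcription. The deposited values were made on GRCm39, per the submitters' processing notes, so the positions belong to the older assembly alone. The bases just after the start occur unbroken in a GENCODE transcript of the gene for Gzma, but not for Gzmb, Gzmc or Prf1. The starts used for these 3 genes were thus not matched to a transcript. Capitals mark matches, on either strand, to core letters bound by transcription factor families of cytotoxic lymphocytes: AGGTGT (T-box, as in T-bet and Eomes), TGTGGT (RUNX), TGANTCA (AP-1) and AGGAAG (ETS).
Gzma, chr13:113100982-113101231, minus strand: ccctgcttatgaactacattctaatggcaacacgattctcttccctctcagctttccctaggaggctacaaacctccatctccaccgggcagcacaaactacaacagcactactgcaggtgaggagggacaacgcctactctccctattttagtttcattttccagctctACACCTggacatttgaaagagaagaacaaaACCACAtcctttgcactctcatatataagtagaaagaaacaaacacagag
Gzmb, chr14:56262335-56262584, minus strand: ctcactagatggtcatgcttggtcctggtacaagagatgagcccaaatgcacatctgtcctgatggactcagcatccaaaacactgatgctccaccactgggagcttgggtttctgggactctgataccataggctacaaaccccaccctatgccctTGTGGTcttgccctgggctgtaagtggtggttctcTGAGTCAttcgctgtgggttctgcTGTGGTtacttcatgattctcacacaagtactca
Gzmc, chr14:56234658-56234907, minus strand: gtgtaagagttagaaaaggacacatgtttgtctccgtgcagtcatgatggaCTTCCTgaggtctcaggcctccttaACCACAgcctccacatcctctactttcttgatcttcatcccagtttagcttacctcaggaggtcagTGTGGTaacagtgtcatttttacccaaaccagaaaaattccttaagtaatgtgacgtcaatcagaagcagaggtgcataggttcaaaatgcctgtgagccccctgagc
Prf1, chr10:61297586-61297835, plus strand: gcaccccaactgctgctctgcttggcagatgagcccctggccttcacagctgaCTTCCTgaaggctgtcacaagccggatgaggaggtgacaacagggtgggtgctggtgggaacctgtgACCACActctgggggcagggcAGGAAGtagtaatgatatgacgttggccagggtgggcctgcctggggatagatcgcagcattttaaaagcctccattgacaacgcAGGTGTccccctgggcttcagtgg
The Gzma window holds 1 T-box and 1 RUNX match. The Gzmb window holds 2 RUNX matches and 1 AP-1 match, the Gzmc window 2 RUNX matches and 1 ETS match, and the Prf1 window 1 T-box, 1 RUNX and 2 ETS matches, with 0 overlapping matches in any of them. Over the 9 start sites listed for the 7 genes, 3 windows hold a T-box match, 6 a RUNX match, 1 an AP-1 match and 3 an ETS match. Of the 32841 promoter windows of the same length in the table, 11.8% hold the T-box letters, 14% the RUNX letters, 6.75% the AP-1 letters and 29.5% the ETS letters. A match is a description of letters and shows no binding. In the assembly's gene order Gzma neighbours Gzmk on chromosome 13, and Gzmc lies between Gzmf and Gzmb on chromosome 14.

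In resting sorted subsets the 7 genes fell into 2 tiers of level. Gzma (ENSMUSG00000023132) was the most abundant gene of the whole library in 16 of 18 libraries and the second most abundant in the other 2, at 7841 to 10690 TPM. Prf1 (ENSMUSG00000037202) ran from 1119 to 1599 TPM, Gzmb (ENSMUSG00000015437) from 651 to 1236 TPM and Srgn (ENSMUSG00000020077) from 267 to 418 TPM. These 4 genes kept the same order of level, Gzma above Prf1 above Gzmb above Srgn, in all 18 libraries. The lower tier held Gzmm (ENSMUSG00000054206) at 5.56 to 24.9 TPM, Gzmk (ENSMUSG00000042385) at 0 to 16.0 TPM and Gzmc (ENSMUSG00000079186) at 0 to 3.78 TPM. The lower-tier genes overlapped one another, and Gzmc and Gzmk were each listed at 0 in 1 library. Together the 7 genes made up 1.08% to 1.46% of the TPM of a library.

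**Figure D1:**
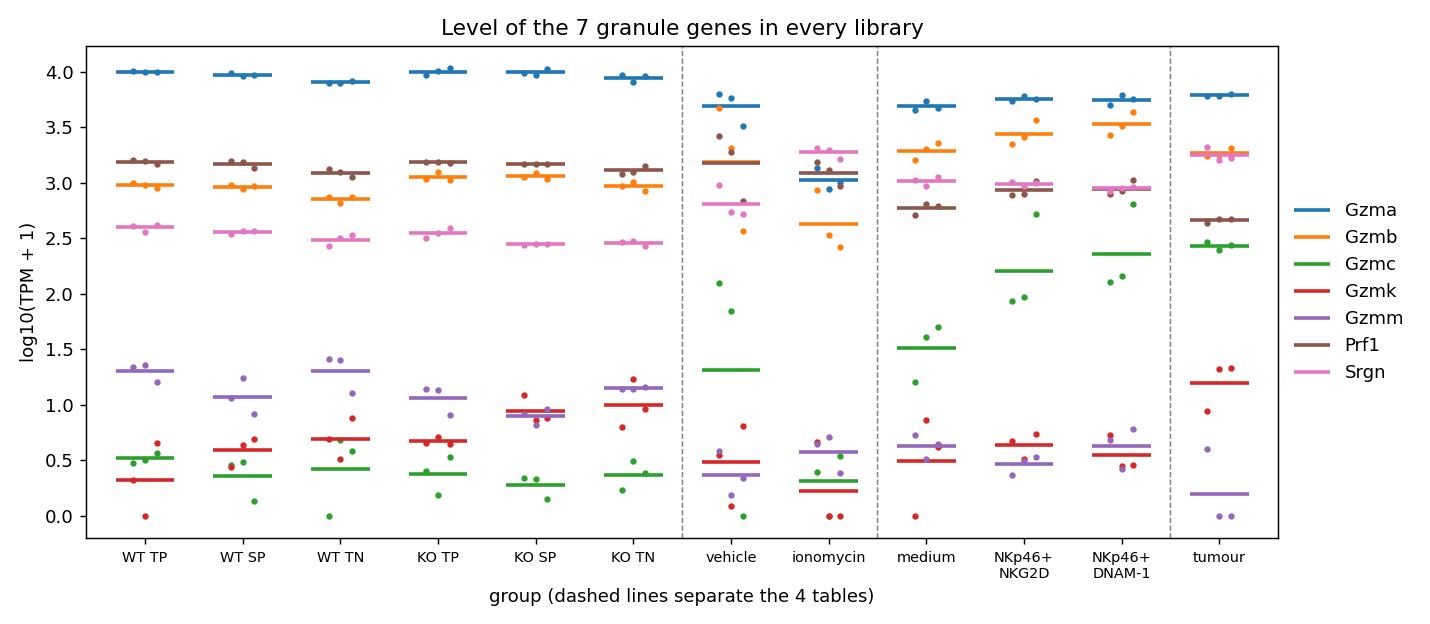
Level of each of the 7 genes, as log10(TPM + 1), in the 36 libraries; dots are libraries, bars are the means of the 3 log values of a group, and dashed lines separate the 4 tables. Gzma lies on top in every group except ionomycin, where Srgn and Prf1 have higher means, and within the antibody table Gzmc lies at 15.0 to 49.6 TPM in medium and at 84.2 to 647 TPM on antibodies.

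TN against TP cells of WT mice asks whether mature NK cells without the sorted inhibitory receptors hold the same granule transcripts as cells with all of them. Gzma, Gzmb and Prf1 fell in TN cells, by 20% to 25% of the TP mean. Gzma, the leading granzyme, was at 10202, 9884 and 9816 TPM in the 3 TP libraries and at 7841, 7856 and 8263 TPM in the 3 TN libraries. Gzmb was at 1001, 948 and 903 TPM in TP and at 739, 651 and 740 TPM in TN cells. Prf1 was at 1599, 1572 and 1460 TPM in TP and at 1328, 1238 and 1119 TPM in TN cells. For each of the 3 genes every TN library lay under every TP library. The differences were -0.32 (SE 0.061, limma adjusted p = 0.011) for Gzma, -0.42 (SE 0.083, adjusted p = 0.0131) for Gzmb and -0.33 (SE 0.075, adjusted p = 0.0343) for Prf1. These 3 of 7 genes were called, where 1.31% of the 12018 genes tested were called and 0.624% were called lower. The median difference was -0.32 over the 7 genes and -0.01 over all genes tested.

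Serglycin, which holds the proteases in the granule, was at 409, 362 and 418 TPM in WT TP cells and at 267, 316 and 336 TPM in WT TN cells. The groups did not overlap, and the difference of -0.37 (SE 0.094) was not called (adjusted p = 0.0652). Of the 7 genes 4 had groups that did not overlap, against 14.6% of all genes tested. Gzmk had higher values in TN cells without a call, at 1.11, 0 and 3.55 TPM in TP and at 3.97, 2.24 and 6.67 TPM in TN cells (difference 1.23, adjusted p = 0.321). Gzmm (20.4 ± 7.45 TPM in TN against 19.4 ± 3.72 in TP, SD, n = 3) and Gzmc (2.22 ± 1.97 against 2.31 ± 0.338) overlapped between the groups. The call of all 3 genes was lost without WT TP replicate 1, where Gzma, Gzmb and Prf1 had adjusted p of 0.0607, 0.0722 and 0.128, when the fit held only the 6 libraries of these groups (0.308, 0.203 and 0.323), and without a variance trend (0.155, 0.0895 and 0.173). Gzma and Prf1 were also lost without a filter on low values (0.268 and 0.0957) and with quantile normalization, where Gzma differed by 0.00 and Prf1 had an adjusted p of 0.0772. Leaving out another library ended the call of Gzma (WT TN replicate 1, adjusted p = 0.0621), of Gzmb (WT TN replicate 2, 0.0652) or of Prf1 (WT TN replicate 2 or 3 or WT TP replicate 2, 0.0788 to 0.136), and Srgn was called without WT TN replicate 3 (-0.44, adjusted p = 0.0413).

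In SP cells, which carry Ly49I, no granule gene was called against TP cells, and most values overlapped. In WT mice Gzma was at 9647, 9123 and 9310 TPM, Gzmb at 942, 872 and 923 TPM and Prf1 at 1559, 1536 and 1344 TPM in the SP libraries. Every SP library lay under every TP library for Gzma, the 1 of 7 genes without overlap (10.6% of all genes), and its SP mean was 6.09% lower. Gzmm had an SP mean of 11.4 TPM, 41.1% under the 19.4 TPM of TP cells, with overlap. None of the 7 genes was called in SP against TP cells with limma (0.191% of all genes were), and 1 of 7 (Gzmm) had an unadjusted p under 0.05, against 7.71% of all genes. The 95% interval of the difference ran from -0.22 to 0.04 for Gzma, from -0.23 to 0.11 for Gzmb and from -0.22 to 0.09 for Prf1. Against SP cells, TN cells again had the lower values of Gzma, Gzmb, Prf1 and Srgn in every library, where 11.4% of all genes did not overlap. None of the 7 was called without a replicate block (0.383% of all genes were), while 5 of 7, and 12.1% of all genes, had an unadjusted p under 0.05. With replicate number as a block, Gzmb was called in WT TN against SP cells at -0.36 (adjusted p = 0.0144, against 0.0777 without the block). The share of all genes called with the block is not given here. The TN and SP comparisons share the TP libraries, so their values are side by side and are not independent.

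In B2m knockout cells the values of Gzma, Gzmb, Prf1 and Srgn were again lower in TN than in TP cells, without a call. In KO TP cells Gzma was at 9262, 10119 and 10690 TPM and in KO TN cells at 9215, 8018 and 9032 TPM. Gzmb was at 1087, 1236 and 1063 TPM in KO TP, at 1130, 1225 and 1069 TPM in KO SP and at 933, 1004 and 837 TPM in KO TN cells. Prf1 was at 1520, 1526 and 1513 TPM in KO TP cells and at 1206, 1251 and 1415 TPM in KO TN cells. For Gzma, Gzmb, Prf1 and Srgn all KO TN libraries lay under all KO TP libraries, and for Gzmk all lay above, where 13.2% of all genes did not overlap. The differences were -0.20 for Gzma, -0.29 for Gzmb, -0.24 for Prf1 and -0.29 for Srgn, at adjusted p from 0.225 to 0.370. None of the 7 was called (0.524% of all genes were), and 4 of 7, with 6.43% of all genes, had an unadjusted p under 0.05. With replicate number as a block, Gzmb alone was called in KO TN against TP cells (adjusted p = 0.0327, against 0.225 without the block). The 0.524% is from the fit without the block, and the share of all genes called with it is not given here.

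In KO SP against TP cells none of the 7 genes was called (0.2% of all genes were), with 1 of 7 (Srgn, -0.33) and 2.93% of all genes at an unadjusted p under 0.05, and with groups that did not overlap for 3 of 7 and 10.9% of all genes. In KO TN against SP cells none was called (0.0416% of all genes were), with 4 of 7 and 2.77% of all genes at an unadjusted p under 0.05, and no overlap for 4 of 7 and 10.9% of all genes. The difference of Gzmb in KO TN against SP cells was -0.30 (adjusted p = 0.664). Whether the TN to TP difference itself changed with genotype was tested as an interaction. It was 0.12 (95% interval -0.06 to 0.31) for Gzma, 0.14 (-0.11 to 0.38) for Gzmb, 0.09 (-0.13 to 0.32) for Prf1 and 0.08 (-0.20 to 0.36) for Srgn. None of the 7 genes was called in the TN interaction or in the SP interaction with limma (0.025% and 0.0166% of all genes were). The only genes called were Ngp, S100a9 and Igha in the TN interaction and Ngp and S100a9 in the SP interaction. They are markers of neutrophils or plasma cells and were high in KO TP cells (below). Of the 7 genes 0 had an unadjusted p under 0.05 in either (6.27% and 4.41% of all genes had), so a loss of the subset difference in KO cells was not shown.

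**Figure D2:**
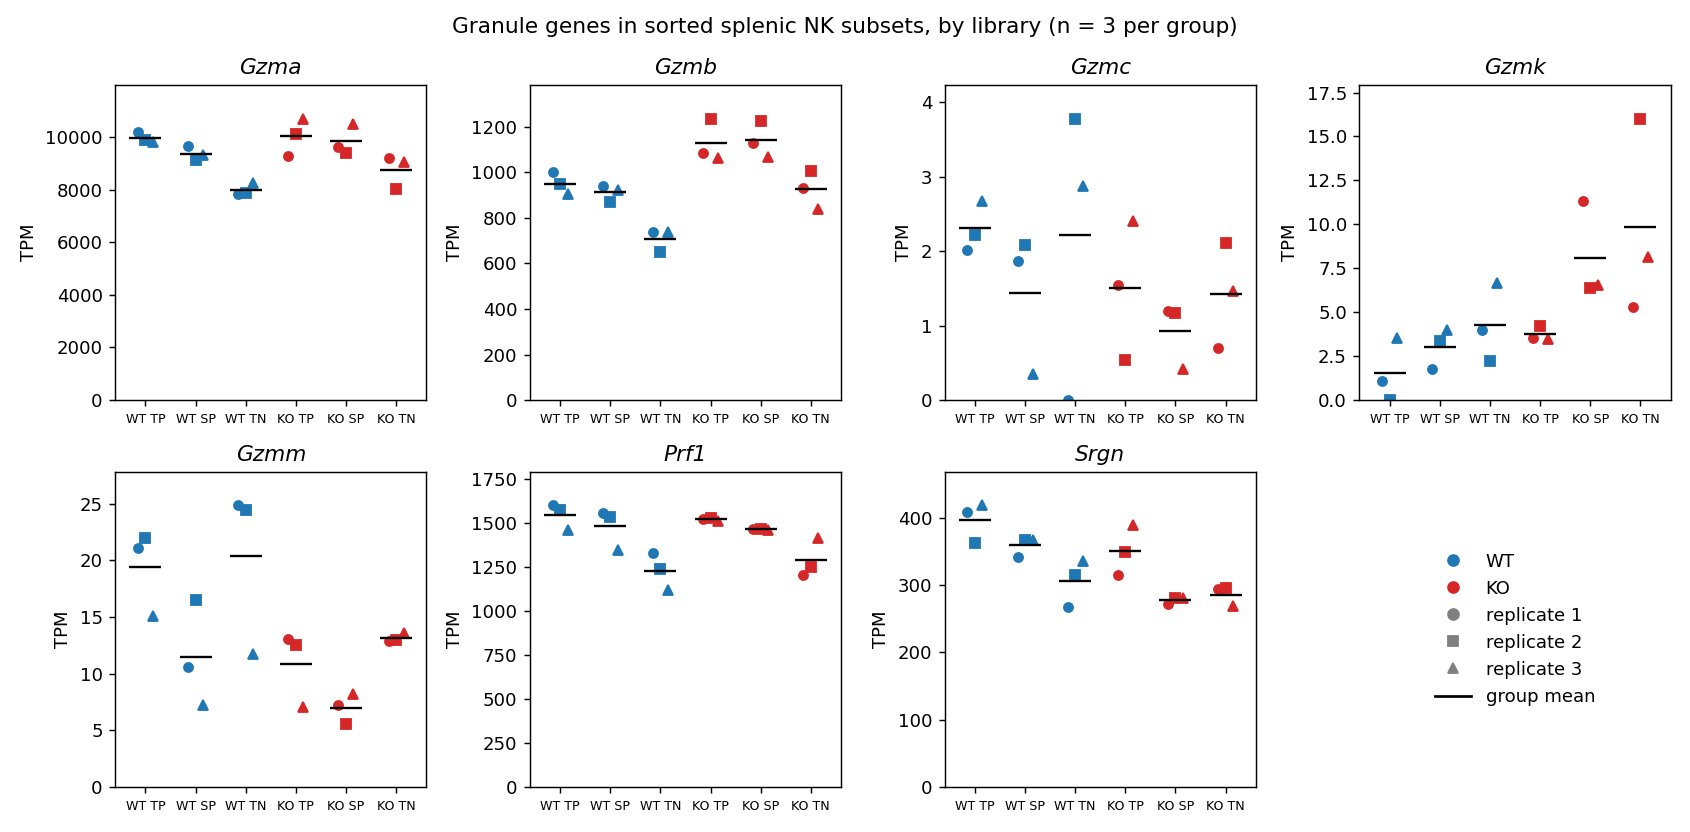
TPM of each gene in the 18 sorted-subset libraries on a linear axis from 0; blue is WT, red is KO, symbols are replicate numbers and black bars are group means. The WT TN libraries are the lowest WT libraries for Gzma, Gzmb and Prf1, and the KO libraries of Gzmb lie above the WT libraries of the same subset.

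The comparison of KO with WT cells within a subset asks what differs in NK cells that matured without normal MHC class I. Gzmb rose in KO TN cells, to 933, 1004 and 837 TPM from 739, 651 and 740 TPM. The difference was 0.38 (SE 0.083, adjusted p = 0.0431), with a mean 30.4% higher, and every KO library lay above every WT library. Gzmb was the only 1 of the 7 genes called there, where 0.716% of all genes were called and 0.424% were called higher. In TP and SP cells every KO library also lay above every WT library for Gzmb, at differences of 0.25 (SE 0.083, adjusted p = 0.193) and 0.32 (SE 0.083, adjusted p = 0.071), which were not called. Of all genes tested, 18.3% did not overlap between genotypes in TP cells, 18.9% in SP cells and 13.7% in TN cells. None of the 7 genes was called in TP (1.59% of all genes were) or in SP cells (1.35% were), and 3 of 7 had an unadjusted p under 0.05 in each, against 11.8% and 11.7% of all genes. The TN call of Gzmb was lost in 5 of the 6 fits that left out 1 library (all but KO TN replicate 3), with adjusted p up to 0.204. It was also lost with the fit limited to the 6 libraries compared (adjusted p = 0.373), without a filter on low values (0.101), with quantile normalization (0.118) and without a variance trend (0.182).

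None of the other 6 granule genes was called between the genotypes. Gzma differed between genotypes by 0.01 in TP cells, 0.07 in SP cells and 0.13 in TN cells, and Prf1 by -0.02, -0.01 and 0.07, with none called. Srgn was lower in KO SP cells, at 271, 280 and 281 TPM against 342, 367 and 367 TPM, without overlap. That difference of -0.37 (SE 0.094, adjusted p = 0.0694) was not called, except under quantile normalization (-0.40, adjusted p = 0.0471). Gzmk ran from 3.46 to 16.0 TPM over the 9 KO libraries and from 0 to 6.67 TPM over the 9 WT libraries, with genotype differences of 1.15 (TP), 1.17 (SP) and 1.00 (TN), none of them called. Gzmm ran from 5.56 to 13.6 TPM in KO and from 7.25 to 24.9 TPM in WT cells, with differences of -0.80, -0.58 and -0.53, also not called. The 3 genotype differences come from separate libraries, but by their column names these may share mice across subsets, so the differences may not be independent.

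Gzmb was also divided by Srgn within a library, a ratio chosen after the values of both genes were seen and given as a description. The ratio was 2.16 to 2.62 in WT TP and 2.73 to 3.54 in KO TP cells. It was 2.37 to 2.75 in WT SP and 3.81 to 4.37 in KO SP cells, and 2.06 to 2.76 in WT TN and 3.12 to 3.41 in KO TN cells. Within each subset every KO library lay above every WT library, while over all subsets the lowest of 9 KO libraries (2.73) lay under the highest of 9 WT libraries (2.76). The lowest KO library was 1.38 times the highest WT library for the ratio and 1.14 times for Gzmb itself in SP cells, while in TP cells these values were 1.04 and 1.06 and in TN cells 1.13 and 1.13. A ratio shows unequal change of the 2 genes and not which of them changed.

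Other cell types were checked by their markers in the same libraries. In KO TP cells the summed level of 4 plasma cell markers was 85.3 to 190 TPM and that of 8 neutrophil or monocyte markers was 84.4 to 271 TPM, against at most 13.1 and 14.6 TPM in any other subset library. Igha alone reached 135 ± 56.3 TPM (SD, n = 3) in KO TP cells. In KO SP and KO TN cells the 2 lists summed to at most 2.47 and 7.91 TPM.

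The T cell list also moved with genotype. Its 8 markers summed to 39.8 to 43.9 TPM in KO TP against 24.6 to 26.0 TPM in WT TP cells, and to 28.5 to 35.7 TPM in KO SP against 11.1 to 26.7 TPM in WT SP cells, without overlap, and to 32.0 to 41.2 TPM in KO TN against 30.0 to 32.2 TPM in WT TN cells. Cd8a was at 0 in all KO libraries, and in KO TP cells it was the only 1 of the 8 at 0 in every library. In WT TP cells Cd3e, Cd5 and Cd8b1 were at 0 in every library. Of the 3 T cell markers tested, Cd3g, a chain of the CD3 complex, rose in KO TP cells (2.39, adjusted p = 0.0184) and Cd28, a costimulatory receptor, in KO SP cells (0.78, adjusted p = 0.0194). Kit, a receptor for stem cell factor on the list of immature NK cells or ILC1, fell in KO cells of all 3 subsets, with means of 2.12 against 48.1 TPM in TP, 1.77 against 38.9 TPM in SP and 6.57 against 29.5 TPM in TN cells. Ncr1, an NK marker, was called lower in KO TP cells (-0.28, limma adjusted p = 0.0125) and in KO SP cells (-0.25, adjusted p = 0.035). No other NK marker was called between the genotypes. The part of any of these genes or lists in the genotype values of Gzmb was not tested. KO TP cells are also the reference for KO TN and KO SP cells and enter both interactions. The part of the plasma cell and neutrophil or monocyte markers there was not tested either.

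Between WT TN and TP cells, 2 of the 5 tested genes of the list for immature NK cells or ILC1 were called, in opposite directions. Cd27, which falls with NK maturation and was gated out in the sort, rose to 190 ± 17.8 TPM in TN from 97.3 ± 17.8 TPM in TP cells (difference 0.97, adjusted p = 0.000527). Itga1, an integrin chain found on ILC1, fell to 0.733 ± 0.643 TPM from 4.13 ± 0.786 TPM (-1.63, adjusted p = 0.0326). Only Cd27 of these 5 genes had a higher value in TN cells, and the median difference of the list was -0.70. Of the 6 NK markers, Ncr1 was called lower in TN cells, at 1939 ± 20.9 against 2306 ± 95.6 TPM (-0.25, limma adjusted p = 0.0333). Eomes, another of the 6, was called higher. The part of these markers in the lower Gzma, Gzmb and Prf1 was not tested.

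Genes around the granule were read from 6 further lists, counted by calls. In WT TN against TP cells, 1 of 6 tested granule proteases and inhibitors (Ctsd, -0.22), 1 of 8 tested granule membrane and sorting genes (Igf2r, 0.87), 0 of 8 tested release genes and 0 of 6 granzyme-blocking serpins were called. Igf2r encodes a mannose 6-phosphate receptor, which sorts enzymes to lysosomes, and was at 115 ± 4.77 TPM in TN and 62.2 ± 1.92 TPM in TP cells (adjusted p = 4.69e-05). Of 10 transcription factors of the cytotoxic programme, Eomes rose by 0.73 (adjusted p = 4.82e-05) and Id2 fell by 0.93 (adjusted p = 7.75e-07) in TN cells, and the other 8 were not called. Igf2r also rose in TN cells of KO mice, by 0.58, and Id2 fell by 0.60.

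Among the 6 lists of genes around the granule, the serpin list had most calls over the 3 subsets in KO against WT cells. Of its genes, 2 of 6 rose in TP cells, 2 of 6 in SP cells and 3 of 6 in TN cells. Serpinb9, the mouse granzyme B inhibitor, was at 405 ± 12.1 against 222 ± 3.60 TPM in TP cells (difference 0.87, adjusted p = 1.23e-06) and rose by 0.80 in SP and 0.63 in TN cells. Serpinb9b, its close relative, rose by 1.84 in TP cells, by 1.35 in SP cells and by 0.85 in TN cells, and Serpinb6b by 0.74 in TN cells. Ctsc, the protease that trims pro-granzymes into active enzymes, rose by 0.58 in SP and by 0.58 in TN cells. Calr, the calcium-binding chaperone calreticulin that is also found in lytic granules, rose by 0.41, 0.45 and 0.37. None of the 8 tested release genes was called in any subset.

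The ionomycin comparison asks what differs in NK cells from splenocytes kept for 22 h with a calcium ionophore, to which the other spleen cells were exposed as well. Gzma fell and Srgn rose. Gzma was at 6271, 5833 and 3222 TPM in the vehicle libraries and at 1344, 867 and 1017 TPM in the ionomycin libraries. Srgn was at 955, 547 and 516 TPM in the vehicle libraries and at 2067, 1979 and 1626 TPM after ionomycin. For both genes the groups were well apart, although vehicle replicate 3 was the lowest vehicle library for each. Gzma changed by -2.21 (SE 0.292, adjusted p = 0.00767), a 4.75-fold lower mean, and Srgn by 1.54 (SE 0.261, adjusted p = 0.0203), a 2.81-fold higher mean. These 2 of 7 genes were called, where 2.91% of the 14372 genes tested were called (1.66% higher and 1.25% lower), and groups did not overlap for 2 of the 7 genes and 20.1% of all genes.

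Gzma went from rank 5 to 15 among all genes of a library with vehicle to rank 122 to 171 with ionomycin. The ratio of Gzma to Srgn within a library was 6.24 to 10.7 with vehicle and 0.438 to 0.650 with ionomycin, so Gzma exceeded Srgn in every vehicle library and Srgn exceeded Gzma in every ionomycin library. The 7 genes together made up 0.480% to 1.46% of a library with vehicle and 0.384% to 0.582% with ionomycin.

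The vehicle libraries disagreed on Gzmb, Gzmc and Prf1. Gzmb was at 4665, 2065 and 362 TPM with vehicle, against 857, 333 and 265 TPM with ionomycin. Gzmc was at 123, 68.5 and 0 TPM with vehicle, against 1.49, 0 and 2.43 TPM with ionomycin. Prf1 was at 2623, 1896 and 689 TPM with vehicle, against 1544, 1299 and 931 TPM with ionomycin. Vehicle replicate 3 lay inside the ionomycin range for Gzmb and Gzmc and under it for Prf1, so the groups overlapped. The differences of -1.84 (SE 0.835, adjusted p = 0.352) for Gzmb, -3.33 (SE 1.61, adjusted p = 0.390) for Gzmc and -0.29 (SE 0.451, adjusted p = 0.828) for Prf1 were not called. Without vehicle replicate 3 the difference of Gzmc was -5.50 and was called (adjusted p = 0.0382). Gzmk (0 to 5.46 TPM) and Gzmm (0.54 to 4.10 TPM) were low in all 6 libraries, with no call.

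Vehicle replicate 3 also stood apart in markers of other cells. The 8 neutrophil or monocyte markers summed to 366 TPM there and to 122 TPM in ionomycin replicate 3, against at most 7.11 TPM in the other 4 libraries. The 8 T cell markers summed to 67.7 to 94.3 TPM with ionomycin and to 17.4 to 36.5 TPM with vehicle, with Cd4, Cd8a and Cd8b1 at 0 in all 6 libraries. The 6 NK markers summed to 3667 to 4318 TPM with ionomycin and 3646 to 5917 TPM with vehicle, and Ncr1 among them fell from 795 ± 280 to 123 ± 25.6 TPM (adjusted p = 0.0045). Cd27, on the list for immature NK cells or ILC1, rose from 89 ± 45 to 342 ± 42.2 TPM (2.09, limma adjusted p = 0.0337). The part of these differences in the granule genes was not tested. The calls of Gzma and Srgn each held in 1 of the 6 fits that left out 1 library: Gzma without vehicle replicate 3 (adjusted p = 0.0265) and Srgn without vehicle replicate 1 (adjusted p = 0.0231). In the others adjusted p reached 0.160 for Gzma and 0.205 for Srgn, while the differences stayed between -2.51 and -2.03 and between 1.38 and 1.82. Both calls were also lost without a filter on low values (adjusted p = 0.0551 and 0.0857) and without a variance trend (0.0596 and 0.112).

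Other granule genes moved in both directions with ionomycin. Of 7 granule proteases and inhibitors 2 fell, Ctsw by 2.86 (adjusted p = 0.0107) and Ctsd by 1.87 (adjusted p = 0.00739), and 5 were not called. Ctsw is a cathepsin of cytotoxic lymphocytes, and was at 54 ± 18.4 TPM against 421 ± 193 TPM with vehicle. Of 8 tested membrane and sorting genes, M6pr, a mannose 6-phosphate receptor, rose by 1.32 and Gnptab, an enzyme that makes its ligand, by 1.19. Ap3b1, a subunit of an adaptor for transport to lysosome-related organelles, was the 1 of 8 tested release genes called and rose by 2.05. Serpina3g fell by 3.00 and was the 1 of 6 serpins called, and Runx3 fell by 1.98 (365 ± 69.9 to 92.2 ± 20.2 TPM) and was the 1 of 10 transcription factors called.

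The antibody comparisons ask what differs in NK cells from splenocytes kept for 48 h on antibodies to NKp46 and a second activating receptor. Gzmc, Gzmb and Prf1 had higher values on either antibody pair than in medium, in every numbered set of libraries. Gzmc was at 15.0, 40.2 and 49.6 TPM in medium, at 84.2, 92.9 and 526 TPM on NKp46 and NKG2D antibodies, and at 125, 144 and 647 TPM on NKp46 and DNAM-1 antibodies. Every antibody library lay above every medium library, and replicate 3 was several times above the others on both antibody pairs. Gzmb was at 1603, 2015 and 2258 TPM in medium, at 2235, 2563 and 3628 TPM on the NKG2D pair and at 2656, 3246 and 4318 TPM on the DNAM-1 pair. Its libraries overlapped between medium and the NKG2D pair and did not overlap between medium and the DNAM-1 pair. Prf1 was at 512, 644 and 619 TPM in medium, at 778, 786 and 1034 TPM on the NKG2D pair and at 785, 835 and 1048 TPM on the DNAM-1 pair, without overlap.

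Without a replicate block none of the 7 genes was called against medium on either pair, where 0.431% and 0.782% of the 13689 genes tested were called, and 4 of 7 had an unadjusted p under 0.05 on each, against 15.1% and 18.0% of all genes. The differences on the NKG2D pair were 2.33 (SE 0.797, adjusted p = 0.226) for Gzmc, 0.50 (SE 0.212, adjusted p = 0.302) for Gzmb and 0.54 (SE 0.147, adjusted p = 0.152) for Prf1. On the DNAM-1 pair they were 2.83 (SE 0.797, adjusted p = 0.126), 0.78 (SE 0.212, adjusted p = 0.12) and 0.58 (SE 0.147, adjusted p = 0.106). The column names read as 1 mouse per number across the 3 conditions. With that number as a block all 3 genes were called higher on both pairs, at adjusted p of 0.0246, 0.016 and 0.0307 on the NKG2D pair and of 0.00993, 0.0018 and 0.0168 on the DNAM-1 pair, for Gzmc, Gzmb and Prf1 in that order. In that fit 239 and 528 genes were called in all. Over the 9 libraries the Pearson r of log2(TPM + 1) was 0.97 between Gzmb and Gzmc, 0.98 between Gzmc and Prf1 and 0.95 between Gzmb and Prf1. The calls of these 3 genes are therefore not independent of each other. When all libraries of any 1 number were left out of the blocked fit, 0 of the 7 genes were called.

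Groups here follow the column names of the table. The sample titles name another group for 6 of the 9 libraries, and grouping by title gave no call among the 7 genes, with differences of 0.57 for Gzmc, 0.27 for Gzmb and 0.14 for Prf1 on the NKG2D pair and of 2.22, 0.63 and 0.37 on the DNAM-1 pair. Each group by title holds a library of every condition named in the columns. By column name, 9 early-response and heat shock genes summed to 2315 to 3571 TPM in medium and to 557 to 691 TPM on antibodies, without overlap. The fit by title thus mixes these libraries and does not test the groups of the column names. Both antibody comparisons share the medium libraries. Set directly against each other, the DNAM-1 and the NKG2D pair gave no call among the 7 genes (0.0146% of all genes were called) and 0 of 7 at an unadjusted p under 0.05 (1.22% of all genes), with Gzmb higher by 0.28 (95% interval -0.19 to 0.75) and Gzmc by 0.50 (-1.28 to 2.28).

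Gzma was among the 16 most abundant transcripts of every library. It was at 4516, 5407 and 4724 TPM in medium, at 5392, 6075 and 5646 TPM on the NKG2D pair and at 4981, 6115 and 5690 TPM on the DNAM-1 pair. Each antibody library lay above the medium library of its number, while the groups overlapped (differences 0.23 and 0.20, adjusted p = 0.286 and 0.301). Srgn had lower values on the DNAM-1 pair, at 846, 899 and 916 TPM against 1051, 928 and 1117 TPM in medium, without overlap and without a call (-0.22, adjusted p = 0.225). Groups did not overlap for 2 of 7 genes on the NKG2D pair (17.3% of all genes) and for 4 of 7 on the DNAM-1 pair (21.1% of all genes). Gzmk (0 to 6.27 TPM) and Gzmm (1.35 to 5.11 TPM) stayed low in all 9 libraries. The 7 genes made up 0.770% to 0.904% of a library in medium, 0.951% to 1.18% on the NKG2D pair and 0.940% to 1.26% on the DNAM-1 pair.

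**Figure D3:**
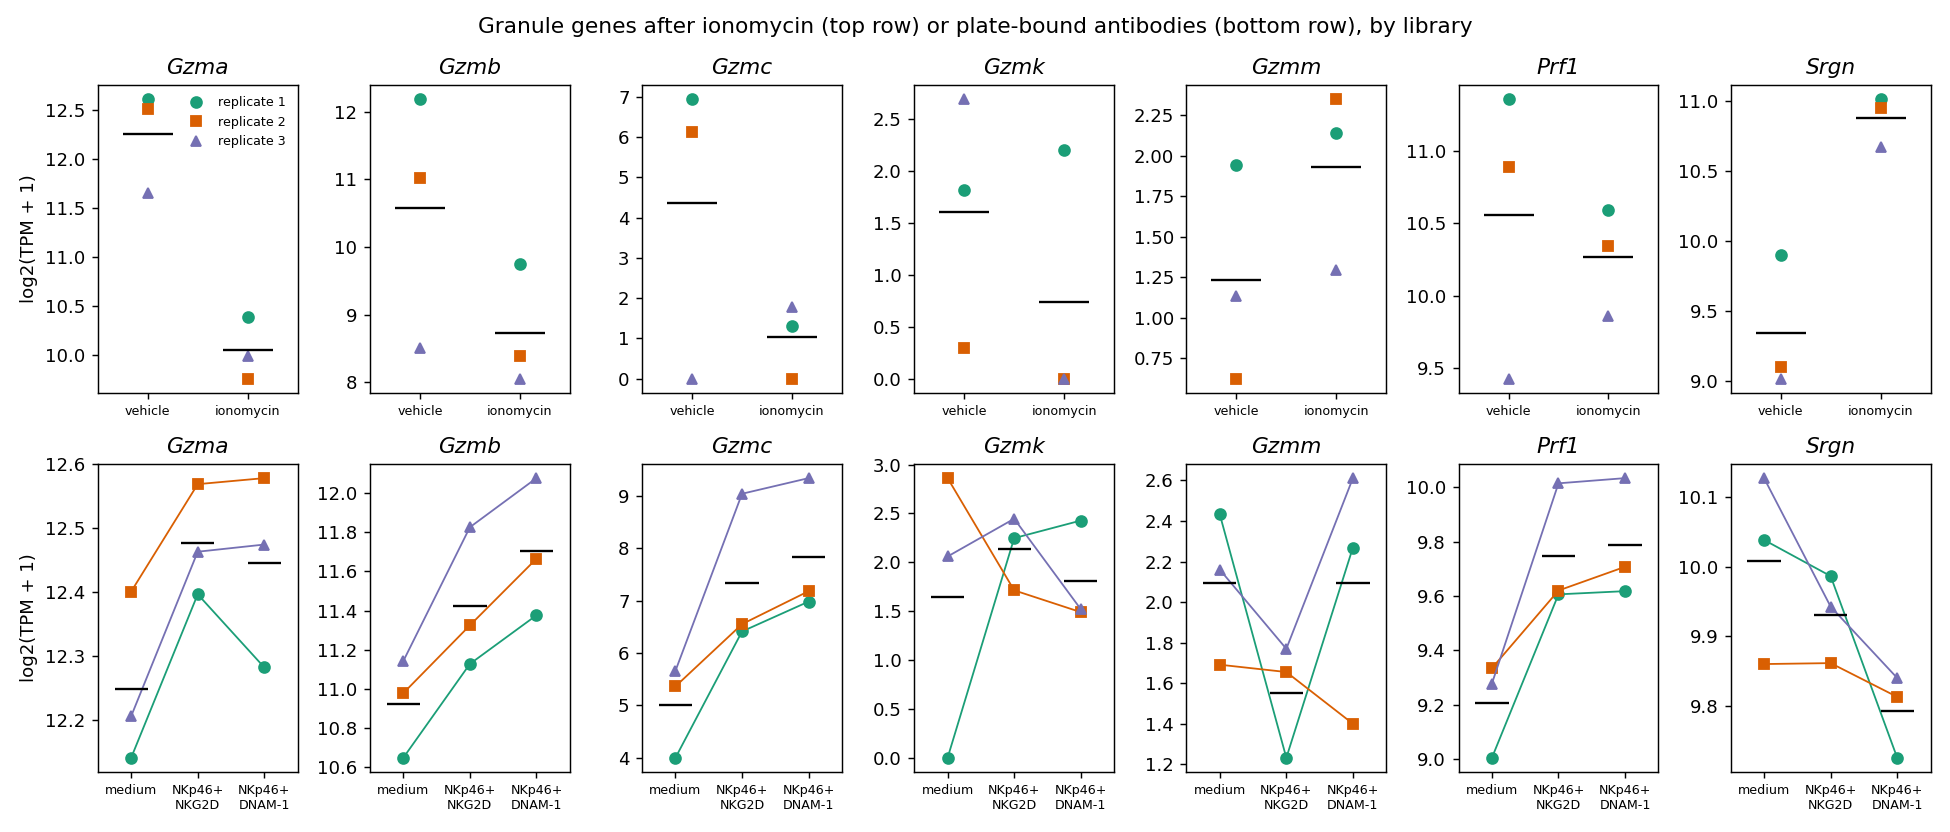
Log2(TPM + 1) of each gene by library in the ionomycin table (top) and the antibody table (bottom); symbols and colours are replicate numbers, black bars are means of 3 and lines join libraries of 1 number in the antibody table. Each panel has its own axis, which does not start at 0. Vehicle replicate 3 (triangle) lies apart for Gzmb, Gzmc and Prf1, and all lines for Gzmb, Gzmc and Prf1 run upward from medium.

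The other granzymes of the Gzmb cluster showed where the table reaches its floor. Gzmd was listed at 0 in all 3 medium libraries, at 1.02 to 19.5 TPM on the NKG2D pair and at 4.51 to 15.7 TPM on the DNAM-1 pair. Gzme was at 0 in medium, at 0.91 to 15.3 TPM and at 2.87 to 17.8 TPM. Gzmn was at 0 in all 9 libraries, and 0 of the 3 cluster genes tested were called. In the sorted subsets Gzmd, Gzme, Gzmf, Gzmg and Gzmn were listed at 0 in all 18 libraries. These genes resemble each other: in GENCODE transcripts, 21.7% of the 50-base windows of Gzmd, 20.6% of those of Gzme and 4.14% of those of Gzmc also occur in another gene of the cluster, and none of those of Gzma, Gzmb, Gzmk, Gzmm, Prf1 or Srgn does. Values of Gzmd and Gzme are therefore uncertain as to which gene gave the reads.

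Other granule lists held few calls on antibodies. Fasl, the death ligand carried by cytotoxic cells, was the 1 of 9 membrane and sorting genes called, and fell by 0.72 on the NKG2D pair and by 0.85 on the DNAM-1 pair. Serpinb9b rose by 1.41 on the DNAM-1 pair (164 ± 38.1 against 60.5 ± 9.77 TPM, adjusted p = 0.0337) and was the 1 of 6 serpins called. None of the 10 transcription factors or of the 8 tested release genes was called on either pair. Medium libraries had fewer genes above 0 (13555 to 14674) than antibody libraries (16107 to 18096), and 9 early-response and heat shock genes summed to 2315 to 3571 TPM in medium against 557 to 691 TPM on antibodies. The part of either in the granule genes was not tested.

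**Figure D4:**
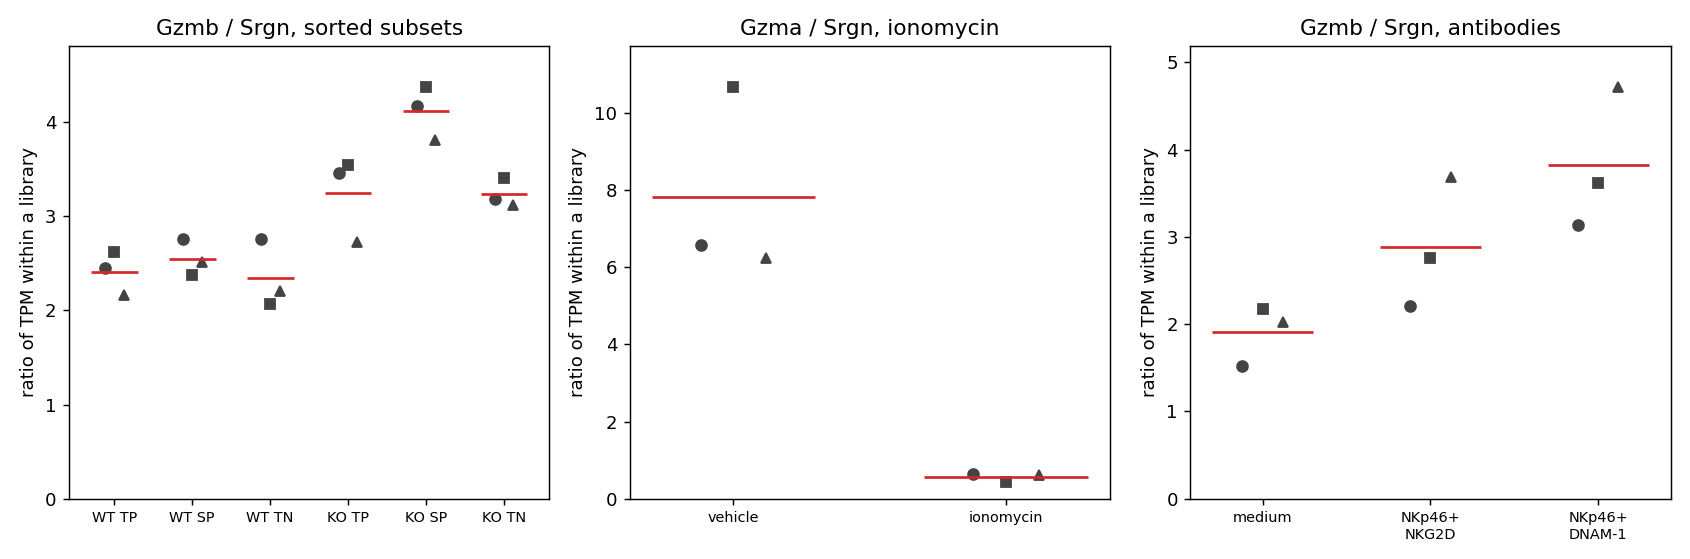
Ratio of 2 granule genes within each library, on linear axes from 0: Gzmb over Srgn in sorted subsets, Gzma over Srgn with ionomycin, and Gzmb over Srgn on antibodies; symbols are replicate numbers and red bars group means. KO libraries lie above WT libraries of the same subset, ionomycin libraries lie at 0.438 to 0.650 against 6.24 to 10.7 with vehicle, and medium libraries lie at 1.53 to 2.17.

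In the tumour libraries Gzma was at 5981, 6077 and 6331 TPM, Gzmb at 1752, 1779 and 2035 TPM and Prf1 at 434, 468 and 472 TPM. Srgn was at 2077, 1610 and 1661 TPM, near Gzmb and above Prf1. Gzmc was at 292, 248 and 273 TPM, Gzmk at 7.77, 19.9 and 20.6 TPM, and Gzmm at 3.00, 0 and 0 TPM. The ratio of Gzmb to Srgn was 0.844 to 1.23 and that of Prf1 to Srgn 0.209 to 0.291. The 6 NK markers summed to 3296 to 3809 TPM, and 9 early-response and heat shock genes summed to 4521 to 10030 TPM. The columns of these libraries carry the names B2MKO and SP, which the titles leave unexplained, and with no second group in the table no test was made.

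**Figure D5:**
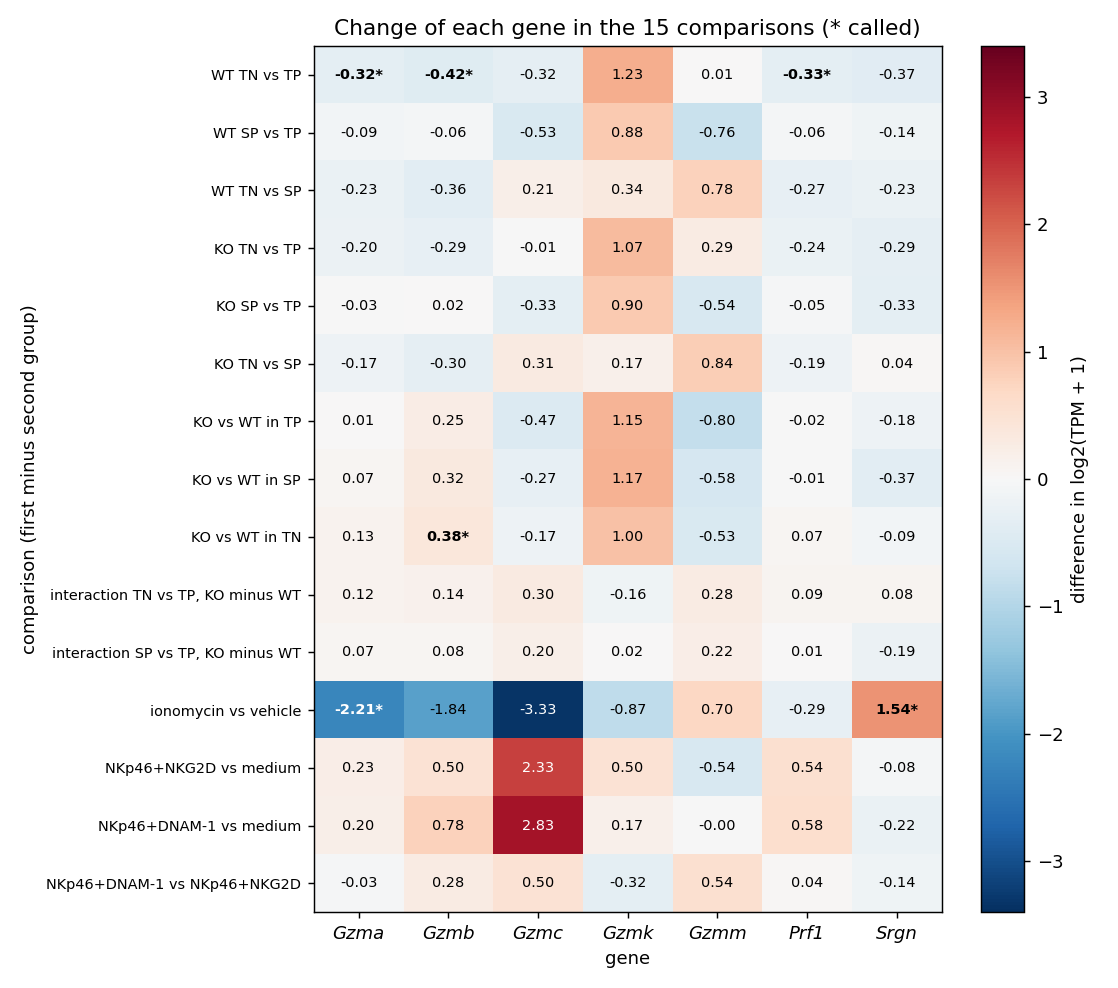
Difference in log2(TPM + 1) of each of the 7 genes (columns) in the 15 comparisons (rows), from the fits without a replicate block; red is higher in the first group named, blue is lower, and a star marks the 6 of 105 differences called at an adjusted p under 0.05. The called cells are Gzma, Gzmb and Prf1 in WT TN against TP, Gzmb in KO against WT TN cells, and Gzma and Srgn with ionomycin.

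Within the 18 sorted-subset libraries the levels of the granule genes varied together only in part. The Pearson r of log2(TPM + 1) was 0.74 between Gzma and Prf1, 0.70 between Gzma and Gzmb, 0.58 between Gzmb and Prf1 and 0.01 between Gzmb and Srgn. Gzmm ran against Gzmb, with an r of -0.62. These libraries share subsets and scaling, and by their column names may share mice, so the values are descriptions without a test. Over 11010 symbols, the patterns most like Gzma were those of Rap1b (r 0.89) and Itm2b (0.88), those most like Gzmb were Fam78b (0.91) and Prkcd (0.90), and those most like Prf1 were Kcnj8 (0.91) and Gpc1 (0.91). Srgn was most like Itgb3 (0.86) and Nhsl2 (0.85), Gzmk like Ripor2 (0.85) and Plod2 (0.82), Gzmm like Map4k1 (0.82) and Cnppd1 (0.82), and Gzmc like Serhl (0.83) and Tcf3 (0.75). Levels of Gzmc and Gzmk near 0 make their likeness to other genes weak as a description.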

How the data were processed

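RNA from the 36 samples was sequenced after capture of poly(A) RNA, and the authors deposited 4 tables of TPM, made with STAR and RSEM on GRCm39 per the submitters' processing notes, which give no version of either tool. TPM hold no sequencing depth, so counting error is unknown and precision comes from the spread over 3 replicates. Samples were grouped by their titles, and in the antibody table by the column names that hold the values, since titles and columns disagreed for 6 of 9 samples. Each table carries a single batch date in the labels.

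Tested genes had a table-wide mean of 1 TPM or more: 12018, 14372 and 13689 in the subset, ionomycin and antibody tables. All 7 granule genes passed this filter in these tables. Tests used log2(TPM + 1), a scale that shrinks the changes of low genes. Limma 3.58.1 in R 4.3.3 fitted 1 mean per group over all libraries of a table, with a variance trend, and was tested on simulated data. Tests were two-sided, with Benjamini-Hochberg adjustment over all genes tested in each of 15 comparisons. Intervals are 95% intervals from limma's moderated t distribution. Alternatives were a pseudocount of 0.1, no filter, quantile or median-of-ratios scaling, no variance trend, only the groups compared, replicate number as a block, each library left out, and groups from titles. In the subset table the block was the number joined to the genotype. For KO against WT cells the block entered as a shared correlation within a block, and in all other comparisons as a term of the fit. Blocked fits without 1 number at a time were added after the data were seen.

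The column names join a number to the genotype in the subset and antibody tables, which reads as 1 mouse per number. The mean correlation of same-numbered libraries' deviations from their group means was 0.01 in the subset table (0 of 18 pairs over 0.1) and 0.06 in the antibody table (1 of 9 pairs), against -0.01 and -0.03 for other pairs. The granule genes and the further gene lists were chosen with earlier results of these data known. The genes named were the 7 granule genes, some called or marker genes of the lists, and the 2 symbols whose log2 values correlated best with each granule gene. Not every list with called genes had them named.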

Additional observations from a re-analysis of the deposited data

How the results depend on the processing

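Over the 15 comparisons, 192 of 219 alternatives gave a number of called granule genes like the reported one. Alike means an equal number, or 2 numbers above 0 within 1.5 times of each other. Most comparisons had 0 calls to begin with, and there 0 again counts as alike. The 192 therefore does not show that the reported calls were stable. Of 105 gene differences, 88 were not called in any fit. The 3 calls in WT TN against TP cells became 1 without a filter on low values and 1 with quantile normalization, and 0 without a variance trend and 0 with only the groups compared; leaving out 1 library gave 0 to 3. Quantile normalization gives Gzma the top value of nearly every library, so its difference there became 0.00 by construction. The 1 call in KO against WT TN cells became 0 without a filter, with quantile normalization, without a variance trend and with only the groups compared, and 0 to 1 when 1 library was left out. In KO against WT SP cells, quantile normalization gave 1 call. The 2 calls with ionomycin became 0 without a filter and 0 without a variance trend, and 0 to 2 when 1 library was left out. With the replicate block there was 1 call in WT TN against SP cells, 1 in KO TN against TP cells and 3 on each antibody pair against medium; no other count changed with the block. In the ionomycin table the libraries share only a number (mean correlation 0.06, 1 of 3 pairs over 0.1), and the block left both calls in place, with 477 in place of 418 genes called in all. The cause of these changes was not tested. No setting moved the median of all genes by over 0.1. Depth is unknown, and Gzmc, Gzmk and Gzmm lie near the low end of the tables in resting cells, where differences were not resolved.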
